A study of Mus musculus with 17 samples.

Results

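The genes described here are those of the proteasome, taken as every gene in the deposited table whose symbol starts with Psma to Psmg followed by a number, leaving out pseudogene symbols. This rule, which uses names only and no measured value, gave 51 of the 56953 genes in the table and left out 5 pseudogene symbols. All 51 had enough counts to be tested. They comprise 8 genes of the alpha ring (Psma), 7 of the beta ring (Psmb1 to Psmb7), 4 exchangeable catalytic subunits of immune cells and thymus (Psmb8 to Psmb11), 9 of the base and 8 of the lid of the 19S cap, 3 chaperones of the base, 4 chaperones of the core (Psmg1 to Psmg4), 5 activator genes (Psme) and the inhibitor Psmf1. The remaining 2, Psmc3ip and Psme3ip1, match by name and are not subunits.

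RNA was sequenced from the prefrontal cortex of 5 WT, 6 PS19 (labelled hTau) and 6 CgA-KO/PS19 (labelled CgA-KO/hTau) mice on the B6C3F1/J background at 8 months of age by the Methods. PS19 mice express human Tau with the P301S mutation from the Prnp promoter, a promoter that is active widely in the nervous system and not in cortical neurons alone. CgA-KO/PS19 mice carry that transgene and lack chromogranin A (gene Chga) in the whole body. The series asks how loss of CgA changes the transcriptome of the PS19 cortex, and has no group lacking CgA without the transgene. Males and females were used, and sex is not given beside each library. Because the tissue is bulk, fewer cells of a type and less RNA per cell cannot be told apart. The labels do not say more of the replicates than that they are separate samples of a genotype. The paper gives n as biological replicates. The p-values thus measure the spread between these samples.

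The proteasome is the protease that degrades most ubiquitin-tagged proteins of the cell, among them misfolded Tau. Its 20S core is a stack of alpha and beta rings with the catalytic sites of Psmb5, Psmb6 and Psmb7 inside, and the 19S cap recognises, unfolds and feeds in the substrate. Under interferon, Psmb8, Psmb9 and Psmb10 replace Psmb5, Psmb6 and Psmb7 during assembly to form the immunoproteasome, which in brain is mostly found in glia.

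Chga was at 152 to 180.1 CPM in the 11 WT and PS19 libraries and at 0 counts in the 6 CgA-KO/PS19 libraries. Levels are in CPM, which relate each deposited count to the library size after TMM normalization in edgeR. The total count ranged from 8838334 in WT replicate 4, the shallowest library, to 227651681. WT 4 and CgA-KO/PS19 6 and 2 stood apart in base composition: across 11735 genes, log2(CPM + 1) changed by -0.45, -0.39 and -0.18 per 10% of transcript GC relative to the mean of the libraries, against -0.02 to 0.16 in the other 14. CgA-KO/PS19 1, 2 and 3 stood apart in their mitochondrial share of counts, at 15.3%, 18.2% and 13.8%, against 2.56% to 10.9% in the other 14. A list of 10 striatal markers, summed, was at 900 to 2314 CPM (WT), 126 to 152 (PS19) and 163 to 1416 (CgA-KO/PS19). The libraries thus differed in striatal transcripts, and the cause was not tested. These features touch several of the results that follow. Values without the libraries concerned are given beside some of them.

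The DNA just before the start is shown for the 4 genes that the results turn on and that have a RefSeq window, since proteasome genes are known to be raised together through sites in their promoters. The stretches come from RefSeq promoter windows on GRCm38.p6 (250 bases before to 50 after a start), shortened to the bases outside any annotated exon, and are written from 5′ to 3′ on the gene's strand, with motif matches in capitals. A window was found for 43 of the 51 genes. No window was matched for Psma8, Psmb1, Psmb2, Psmb7, Psmc3, Psmd3, Psmd7 and Psmg2. The stretch shown for Psmb10 lies at chr8:105938445-105938642 (minus strand), that for Psmb5 at chr14:54618023-54618245 (minus), that for Psma3 at chr12:70974373-70974620 (plus) and that for Psmc5 at chr11:106256080-106256153 (plus).
Psmb10: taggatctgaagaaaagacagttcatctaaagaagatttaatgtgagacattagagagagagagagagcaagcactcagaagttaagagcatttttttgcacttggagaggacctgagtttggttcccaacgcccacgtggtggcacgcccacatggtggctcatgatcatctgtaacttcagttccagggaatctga
Psmb5: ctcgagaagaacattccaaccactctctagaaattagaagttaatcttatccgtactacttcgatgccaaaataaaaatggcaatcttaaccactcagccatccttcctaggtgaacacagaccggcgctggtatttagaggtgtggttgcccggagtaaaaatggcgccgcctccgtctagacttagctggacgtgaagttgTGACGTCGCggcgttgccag
Psma3: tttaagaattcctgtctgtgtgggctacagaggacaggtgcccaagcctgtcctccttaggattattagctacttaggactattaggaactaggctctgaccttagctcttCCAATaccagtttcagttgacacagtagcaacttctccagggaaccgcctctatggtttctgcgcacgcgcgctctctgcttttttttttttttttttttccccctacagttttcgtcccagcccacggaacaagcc
Psmc5: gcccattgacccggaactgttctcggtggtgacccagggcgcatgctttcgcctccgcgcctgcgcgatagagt

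Psmb5 holds a match to the core of the antioxidant response element, TGACNNNGC, 47 bases before its start, and Psma3 a CCAAT box 139 bases before. Neither these motifs nor the interferon-stimulated response element core (GAAA, any 2 bases, GAAA) or the STAT site TTCNNNGAA occurred in the stretches shown for Psmb10 and Psmc5. Counted on both strands over whole windows, TGACNNNGC was in 12.8% of the 47 windows of proteasome genes (those of Psmb5, Psmb6, Psmc6, Psmd12, Psmd9 and Psme4) and in 12.4% of all 32851 promoter windows. CCAAT was in 34% of the proteasome windows and 37.4% of all windows. The interferon motif was in 10.6% (Psmb3, Psmd4, Psmd9, Psme1 and Psmg4) against 3.44%, and TTCNNNGAA in 6.38% (Psmb8, Psmd2 and Psmg1) against 8.3%. A match is a run of letters and not a shown binding site.

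Per length of transcript, the parts of the proteasome fell into clear tiers in the cortex. In WT the median level was 48.6 CPM per kb of transcript over the 15 genes of the 20S core and 49.3 over the 17 of the 19S cap. In PS19 these medians were 50.4 and 50.4, and in CgA-KO/PS19 they were 49.3 and 47.3. Within the beta ring of WT mice the levels went from 30.7 CPM per kb for Psmb5, which has the chymotrypsin-like site, to 72.9 for Psmb6, which has the caspase-like site. Within the alpha ring, Psma8, which replaces Psma7 in testis, was at 0.0696 CPM per kb in WT. Psma4 was highest in WT at 72.5 (Psma6 was highest in PS19 at 61.4 and in CgA-KO/PS19 at 65.3). In the 19S base, a ring of ATPases with scaffold proteins, the ATPase genes Psmc1 (104 CPM per kb) and Psmc5 (101) were highest and Psmc6 lowest (37.3). In the lid, which removes ubiquitin chains, the levels went from 20.8 for Psmd13 to 64.8 for Psmd7.

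The assembly chaperones lay well under the subunits they help to assemble. Psmg1 to Psmg4, which build the alpha ring, were at 5.67 to 9.31 CPM per kb in WT, and the base chaperones Psmd5, Psmd9 and Psmd10 at 6.86 to 12.0. Among the activators, which open the core without the 19S cap, Psme3 of the nuclear PA28-gamma complex was at 52.2, Psme1 and Psme2 of the interferon-induced PA28-alpha/beta complex were at 23.7 and 10.6, and Psme4 (PA200) was at 7.51. Psmf1, which binds the core and inhibits it, was at 8.14. The immunoproteasome genes were unequal among themselves in WT, with Psmb10 at 8.93, within the range of the chaperones, Psmb8 at 0.755 and Psmb9 at 0.385, and the thymus subunit Psmb11 was at 0.0888.

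**Figure D1:**
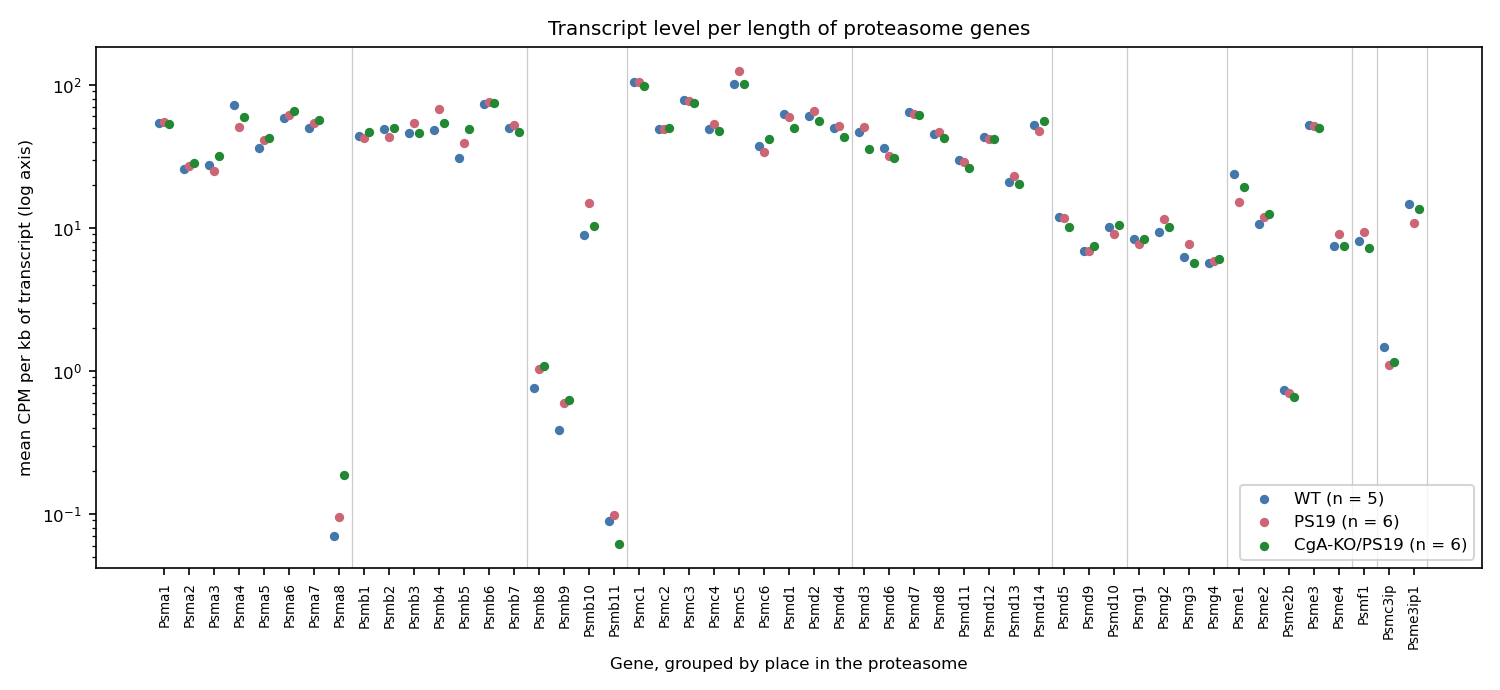
Mean level of each proteasome gene in each genotype, in CPM per kb of transcript on a log axis, arranged by the part of the complex it belongs to. In WT the medians of the 20S core (48.6) and the 19S cap (49.3) lie close together, chaperones lie at 5.67 to 12.0, and Psmb8, Psmb9, Psmb11 and Psma8 lie near or under 1.

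Few proteasome genes differed between genotypes. In PS19 against WT, 2 of 51 genes (3.92%) were higher at an FDR (Benjamini-Hochberg adjusted p over 23062 genes) under 0.05 and 0 lower, against 5.9% of all genes tested in either direction (1.95% higher and 3.95% lower). The 2 were Psmb10 and Psmc5. Between CgA-KO/PS19 and PS19, 1 gene was higher (Psma3) and 3 were lower (Psmb10, Psmc5 and Psmd3), 7.84% of the members against 9.72% of all genes (5.5% higher and 4.22% lower). Between CgA-KO/PS19 and WT, 0 members passed the FDR by edgeR, against 6.46% of all genes (3.56% higher and 2.89% lower), while 8 had an unadjusted p under 0.05 (21.7% of all genes) and DESeq2 called 4 (11.5% of all genes). At an unadjusted p under 0.05 there were 11 members in PS19 against WT (20.9% of all genes) and 13 in CgA-KO/PS19 against PS19 (27.8%). The threshold of the study's Methods is a log2 fold change beyond 0.5 with p under 0.01, used there with DESeq2 and applied here to edgeR values. The members past it were Psmb10 in PS19 against WT (7.39% of all genes passed), Psmb10 and Psmd3 in CgA-KO/PS19 against PS19 (9.73%), and Psmb5 in CgA-KO/PS19 against WT (7.75%). The shares of called members are near or under those of all genes.

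The sizes were small as well. The log2 fold change lay within 0.5 of 0 for 47 of the 51 genes in each of the 3 comparisons. The median was 0.04 in PS19 against WT (all genes, 0.01), -0.02 in CgA-KO/PS19 against PS19 (all genes, 0.03) and -0.01 in CgA-KO/PS19 against WT (all genes, 0.01). The first 2 comparisons share the PS19 libraries, so a gene that is high or low in PS19 moves in opposite directions in them. The most similar libraries of a genotype were averaged (PS19 4 to 6, and CgA-KO/PS19 1 and 3). Their log2 ratios to each other had an SD of 0.22 to 0.25 across 3761 genes, against 0.26 to 0.68 in the other pairs. There was no clear gap: CgA-KO/PS19 1 and 3 were at 0.255 and the next pair, PS19 2 and 3, at 0.263. With fewer libraries in this fit, 0 members were called in each comparison. Of all genes, 1.92% were called in PS19 against WT, 0.697% in CgA-KO/PS19 against PS19 and 2.58% in CgA-KO/PS19 against WT.

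**Figure D2:**
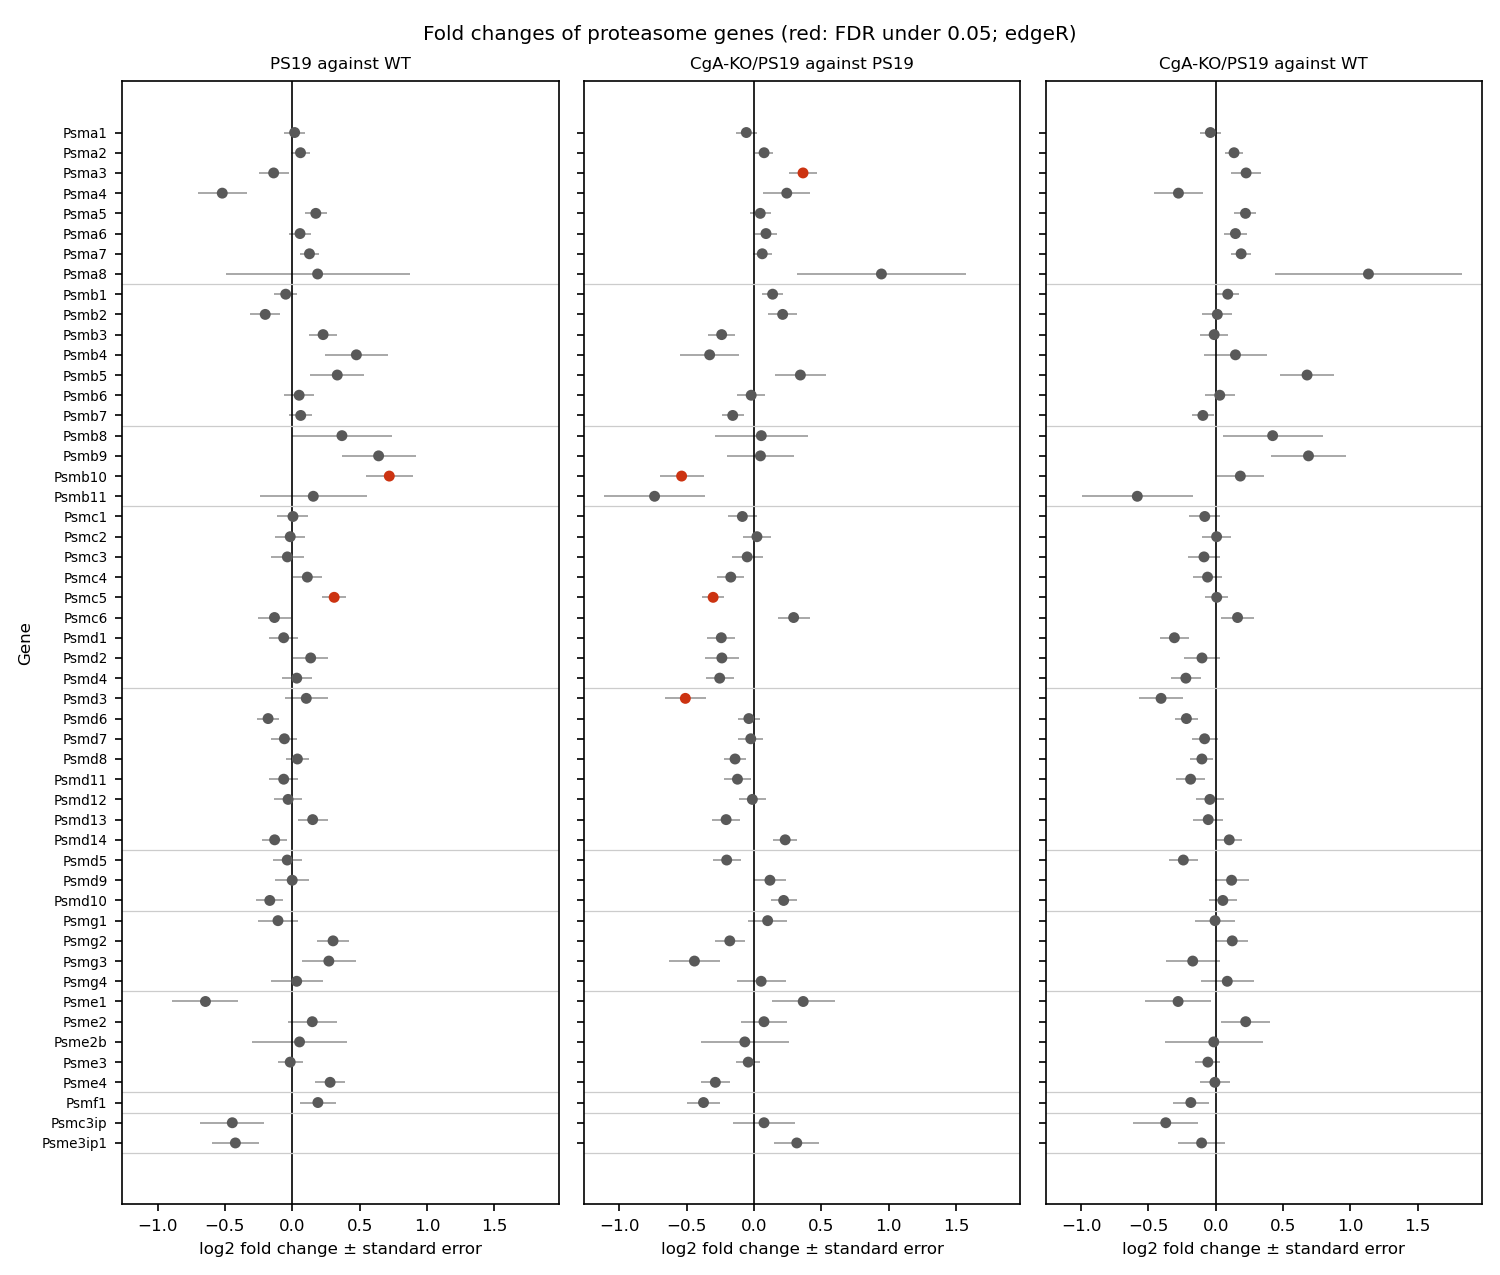
Fitted log2 fold change of each proteasome gene in the 3 comparisons, with bars of 1 standard error, arranged by part of the complex. Red points have an FDR under 0.05: Psmb10 and Psmc5 in PS19 against WT, and Psma3, Psmb10, Psmc5 and Psmd3 in CgA-KO/PS19 against PS19.

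Psmb10, the immunoproteasome's trypsin-like subunit (chr8:105935735-105938444, minus strand), had the clearest difference. The 5 WT libraries were at 13.1, 15.5, 12.9, 6.39 and 10.6 CPM. The PS19 libraries were at 17.4 to 21.5 (median 19.4) and the CgA-KO/PS19 libraries at 9.38 to 17.02 (median 13.8). All 6 PS19 libraries exceeded all 11 others, while WT and CgA-KO/PS19 overlapped. The level was 1.65-fold of WT in PS19 (log2 fold change 0.72 ± 0.17 SE, edgeR FDR = 0.0194) and 0.689-fold of PS19 in CgA-KO/PS19 (-0.54 ± 0.16, FDR = 0.0461). Against WT, the log2 fold change in CgA-KO/PS19 was 0.18 ± 0.17 (FDR = 0.592). WT 4, at 6.39, and CgA-KO/PS19 6, at 9.38, the lowest of their genotypes, are the libraries with the most negative GC slope, and the Psmb10 transcript has 56.5% GC. Without those libraries and CgA-KO/PS19 2, Psmb10 was still called in both comparisons. Without CgA-KO/PS19 1 to 3 it was not called against PS19, where 1.46% of all genes were. With the GC slope as a covariate the difference between CgA-KO/PS19 and PS19 was -0.21 (FDR = 0.160), and that between PS19 and WT was still called. Leaving out 1 library at a time, the call in PS19 against WT was lost without 1 library (WT 5, 0.68, FDR = 0.0653), and that in CgA-KO/PS19 against PS19 was kept only without WT 2, WT 4 or CgA-KO/PS19 4 (FDR 0.0511 to 0.0999 without each of the other 14).

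The other subunits of the immunoproteasome were far lower. Psmb8 (chr17:34197721-34201454) was at 2.02, 1.43, 1.25, 0 and 1.45 CPM in WT, 1.37 to 2.00 in PS19 (median 1.70) and 1.05 to 2.46 in CgA-KO/PS19 (median 1.75). The genotypes overlapped, and the 0 in the shallow WT 4 allows up to 1.03 CPM if 3 deposited counts are taken as 1 fragment and up to 3 fragments as unseen. The log2 fold change of Psmb8 was 0.37 ± 0.37 SE in PS19 against WT (edgeR FDR = 0.613) and 0.05 ± 0.34 in CgA-KO/PS19 against PS19 (FDR = 0.941). Psmb9 (chr17:34181987-34187764) was at 0.463, 0.307, 0.715, 0.57 and 0.55 CPM in WT, 0.455 to 1.07 in PS19 (median 0.873) and 0.578 to 1.05 in CgA-KO/PS19 (median 0.901). Its genotypes overlapped too, and with log2 fold changes of 0.64 ± 0.28 (FDR = 0.188) and 0.69 ± 0.28 (FDR = 0.152) against WT, neither PS19 nor CgA-KO/PS19 passed the threshold. Psmb11 was at 0.203 to 0.553 CPM in WT, with 3 counts in WT 4 and 17 to 58 in the other WT libraries.

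The share of immunoproteasome subunits was measured as the ratio of each to the constitutive subunit it replaces, per kb of transcript and within a library, so that library scaling cancels. Psmb10 was at 18.5%, 21.5%, 20.01%, 11.3% and 17.2% of Psmb7 in the 5 WT libraries. It was at 25.9% to 30.5% in PS19 (median 29.5%) and at 14.8% to 27.2% in CgA-KO/PS19 (median 22.7%). The PS19 libraries lay above all WT libraries and overlapped with CgA-KO/PS19. The mean log2 ratio was 0.72 higher in PS19 than in WT (two-sided exact permutation test, p = 0.00433, the smallest that 5 against 6 samples allow; adjusted over 9 tests, 0.0292) and 0.40 lower in CgA-KO/PS19 than in PS19 (difference -0.40, exact permutation p = 0.00649, adjusted 0.0292). CgA-KO/PS19 and WT differed by 0.32 (exact permutation, adjusted p = 0.312). Without WT 4 and CgA-KO/PS19 2 and 6 the first 2 differences were 0.57 and -0.29 (exact permutation, adjusted p = 0.0857 and 0.100). Without CgA-KO/PS19 1 to 3 the second was -0.48 (3 libraries against 6, exact permutation, adjusted p = 0.321). With fewer libraries the smallest p that this test allows is larger. A p-value above the threshold here thus does not by itself show that a difference was lost. The second difference was not at that smallest p, since CgA-KO/PS19 4 (27.2%) overlapped with PS19 (25.9% to 30.5%).

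Psmb8 was at 0.212% to 3.91% of Psmb5 over all libraries and Psmb9 at 0.273% to 1.09% of Psmb6. The 0.212% was in WT 4, where Psmb8 had 0 counts, so it rests on the prior count and is not a measured level. The lowest of the other libraries for Psmb8 was 1.27%, in CgA-KO/PS19 5. None of the 6 differences of these 2 ratios between genotypes passed the adjusted threshold, the smallest being 0.260 for Psmb9/Psmb6 in CgA-KO/PS19 against WT (exact permutation test).

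**Figure D3:**
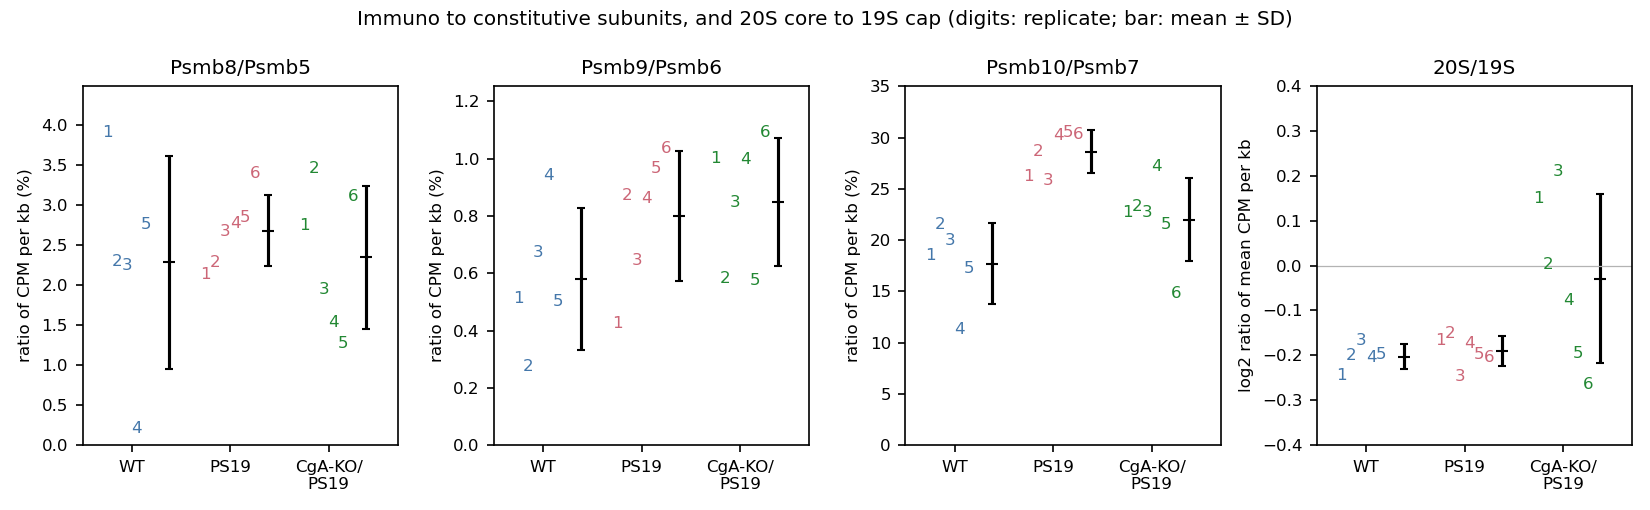
Ratio of each immunoproteasome subunit to the constitutive subunit it replaces, as a percent of CPM per kb in each library (digits, the replicate) by genotype with mean and SD, and the log2 ratio of the mean levels of the 20S core and the 19S cap. Psmb10/Psmb7 is at 25.9% to 30.5% in the 6 PS19 libraries, above the 11.3% to 21.5% of WT, and core to cap is highest in CgA-KO/PS19 1 to 3. The other 2 subunit ratios lie between 0.212% and 3.91%, where the 0.212% is Psmb8/Psmb5 in WT 4 with 0 counts of Psmb8.

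Among the constitutive catalytic subunits, Psmb5 (chr14:54614119-54618022, minus strand), the site blocked by proteasome inhibitor drugs, varied most. It was at 28.8, 34.5, 30.8, 14.8 and 29.1 CPM in WT and at 32.5 to 38.1 in PS19 (median 34.9). In the 6 CgA-KO/PS19 libraries it was at 49.6, 33.2, 52.9, 59.1, 46.1 and 25.3 CPM. Replicates 1, 3, 4 and 5 lay above every WT and PS19 library, and replicates 2 and 6 lay among or under them. In CgA-KO/PS19 the level was 1.60-fold of WT (log2 fold change 0.68 ± 0.20 SE, unadjusted p = 0.0037, edgeR FDR = 0.0537), past the threshold of the study's Methods and not past the FDR. Replicates 2 and 6 and WT 4 are the libraries with a low GC slope, and the Psmb5 transcript has 56.6% GC. Without these 3, the log2 fold change of Psmb5 in CgA-KO/PS19 was 0.76 against WT (edgeR FDR = 0.000613) and 0.57 against PS19 (FDR = 0.00218), a choice made after seeing the data. With all libraries the difference from PS19 was 0.34 ± 0.19 (FDR = 0.251). Without replicates 1 to 3 the difference from WT was 0.65 (FDR = 0.166).

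Psmb6 and Psmb7, the other constitutive catalytic subunits, were steady. Psmb6 was at 54.9, 68.2, 63.1, 39.2 and 65.3 CPM in WT, against 58.4 to 64.8 (PS19) and 55.5 to 63.4 (CgA-KO/PS19), so that all 3 genotypes overlapped. Psmb7 was at 50.4 to 63.7 (WT), 56.1 to 66.3 (PS19) and 47.0 to 58.0 (CgA-KO/PS19). Neither passed in any comparison, nor did the structural beta subunits Psmb1 to Psmb4. Psmb3 and Psmb4 lay higher in each PS19 library than in each WT library, with unadjusted p-values of 0.0456 and 0.0556.

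**Figure D4:**
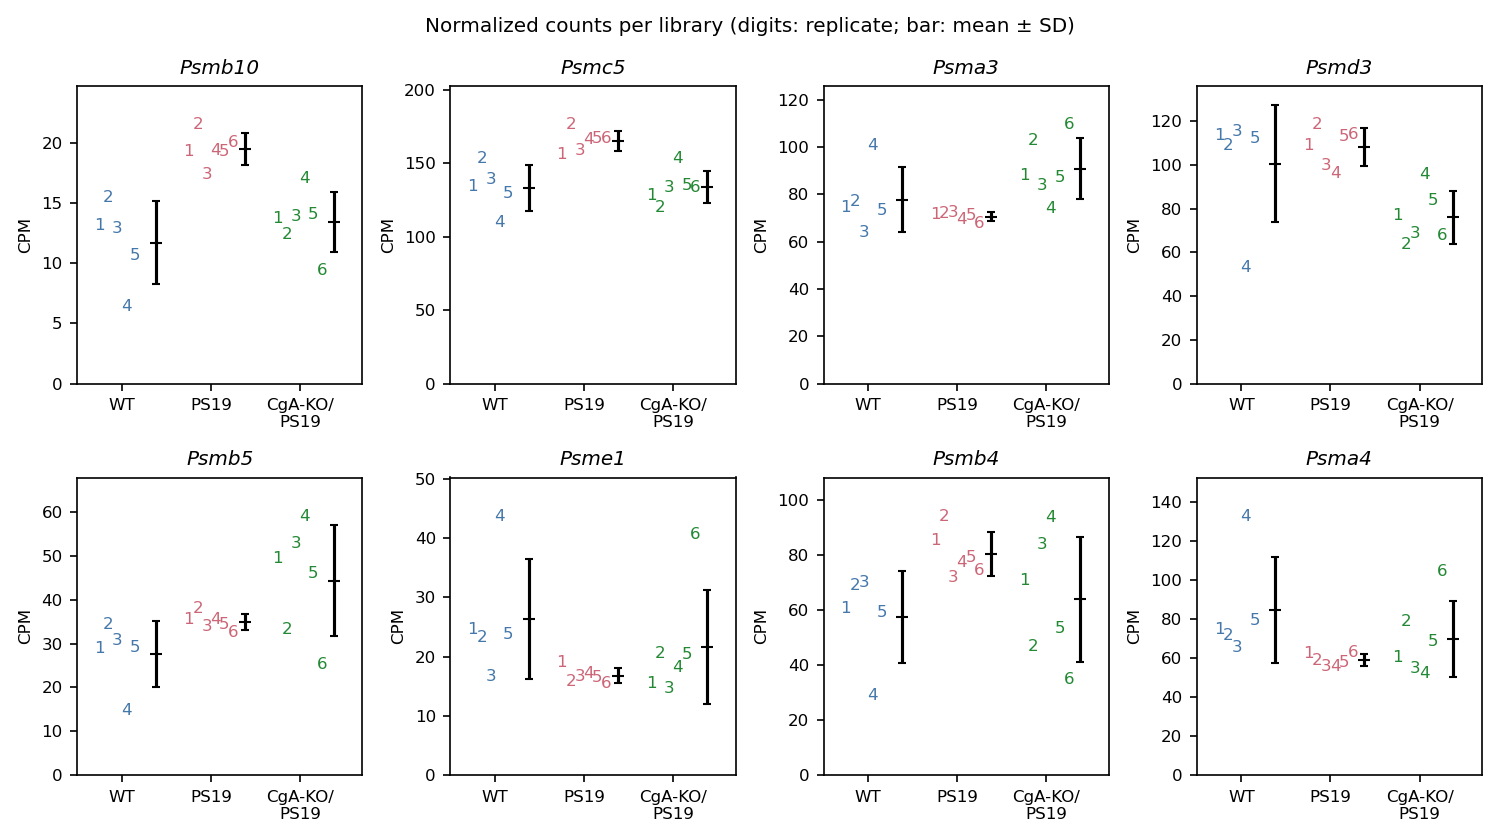
CPM of 8 proteasome genes in each of the 17 libraries (digits, the replicate), by genotype, with the mean and SD of each genotype. Psmb10 is at 17.4 to 21.5 in PS19 and at most 17.02 in CgA-KO/PS19 and 15.5 in WT, and Psmb5 spreads from 25.3 to 59.1 in CgA-KO/PS19.

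In the alpha ring, Psma3 (chr12:70974621-70996347) was the only gene to pass the FDR. It was at 74.2, 77.0, 63.7, 101 and 73.2 CPM in WT, 67.5 to 72.2 in PS19 (median 71.2) and 74.1 to 109 in CgA-KO/PS19 (median 87.5). Each CgA-KO/PS19 library was above each PS19 library, and WT overlapped with both. Psma3 rose 1.29-fold in CgA-KO/PS19 against PS19 (log2 fold change 0.36 ± 0.11 SE, edgeR FDR = 0.0400). Its highest values, 109 and 103, were in CgA-KO/PS19 6 and 2, its highest WT value was in WT 4, and its transcript has 40.8% GC. With these 3 libraries left out the difference was 0.24 (FDR = 0.0545) and with the GC slope as a covariate 0.16 (FDR = 0.122). Psma3 was not called without CgA-KO/PS19 1 to 3. The call was kept without WT 1, 3, 4 or 5 or CgA-KO/PS19 3, 4 or 5, and lost without each of the other 10 libraries (edgeR FDR 0.0514 to 0.0946). Psma8 was at 0 to 0.485 CPM in all libraries. The other 6 genes of the ring passed in no comparison. Psma4 lay lower in each PS19 library than in each WT library (-0.52 ± 0.18, edgeR FDR = 0.104). Psma7 lay higher in each (0.13 ± 0.07, FDR = 0.335).

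Psma4 and Psmb4 stood apart in opposite directions in WT 4 and CgA-KO/PS19 6, and were picked after their values were seen. Psma4 (45.0% GC) was at 132 CPM in WT 4 against 65.1 to 79.2 in the other WT libraries, and at 104 in CgA-KO/PS19 6 against 52.0 to 78.3 in the others of its genotype. Psmb4 (52.2% GC) was at 29.1 in WT 4 against 59.2 to 70.1, and at 34.9 in CgA-KO/PS19 6 against 46.9 to 93.6. Over the 44 members above 5 CPM on average, the SD of a library's deviations from each gene's mean over the 17 libraries, as log2(CPM + 1), was 0.49 in WT 4 and 0.36 in CgA-KO/PS19 6, against 0.11 to 0.25 in the other 15.

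**Figure D5:**
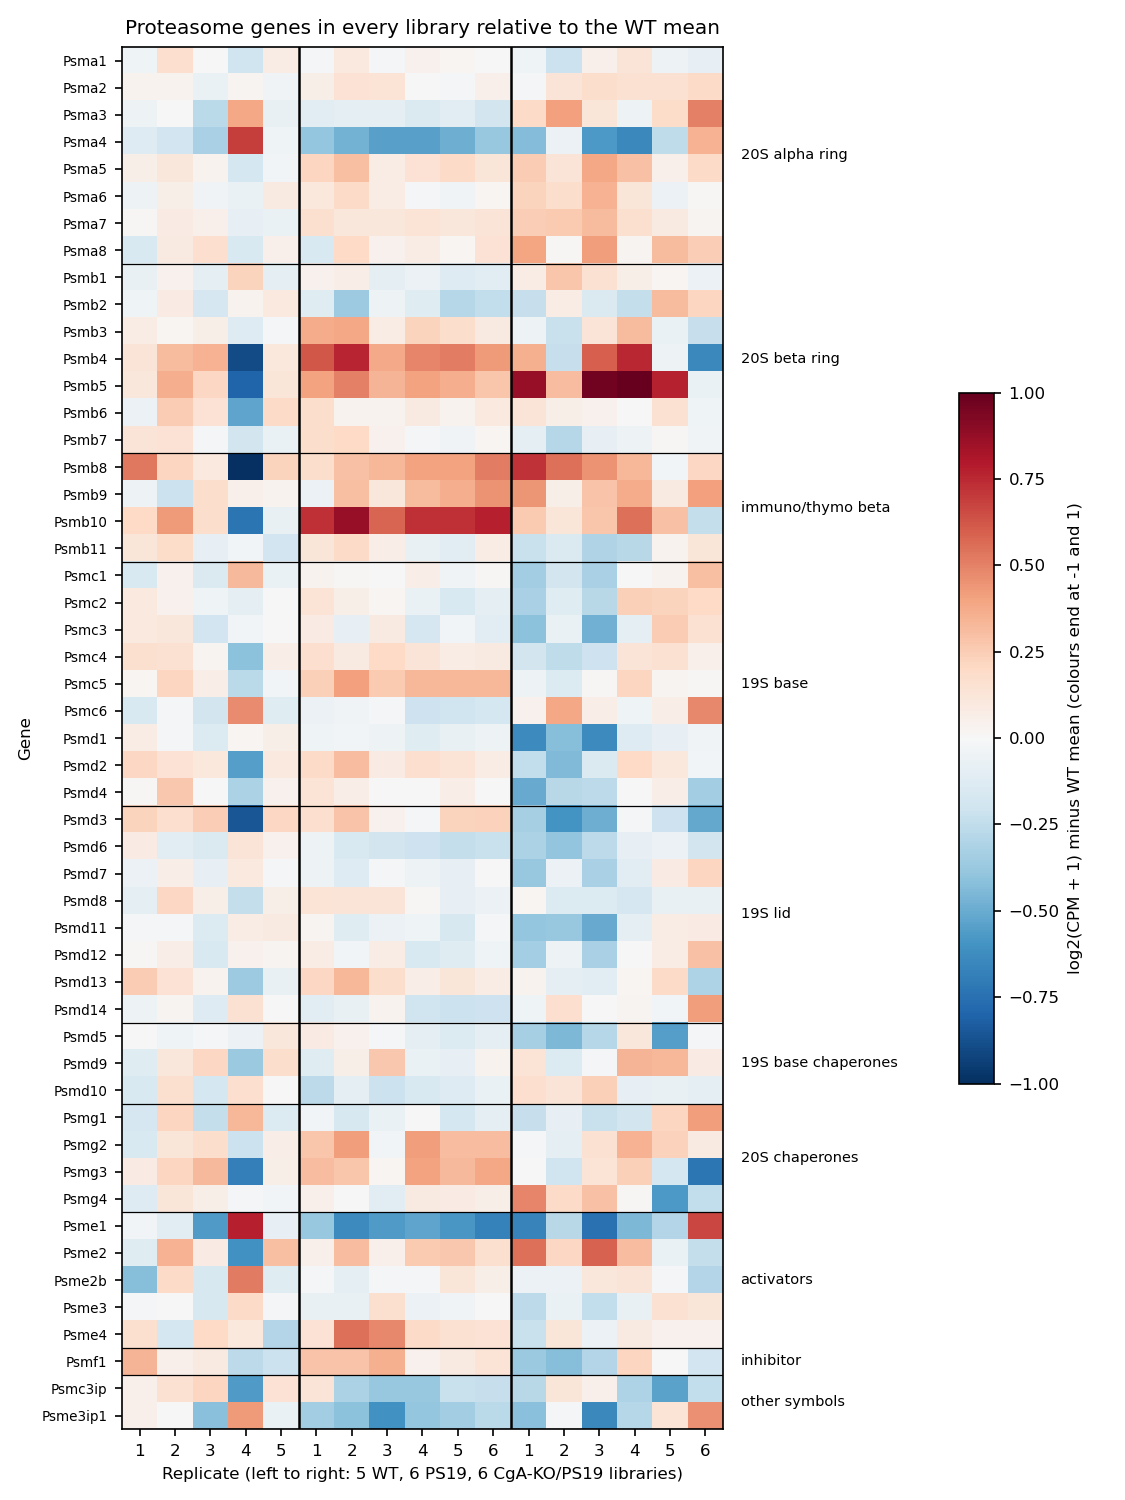
Level of each proteasome gene, as log2(CPM + 1) minus the mean of the WT libraries, with libraries as columns and genes by part of the complex as rows (red higher, blue lower). In WT 4 and CgA-KO/PS19 6 Psma4 and Psme1 are high where Psmb4 is low, and many 19S genes are low in CgA-KO/PS19 1 to 3.

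In the base of the 19S cap, Psmc5 (chr11:106256154-106263120), an ATPase of the unfolding ring, changed in both comparisons with PS19. It was at 134, 153, 139, 109.6 and 129.5 CPM in WT, 156 to 176 in PS19 (median 166) and 120.0 to 153 in CgA-KO/PS19 (median 133). All 6 PS19 libraries again exceeded the 11 others, which overlapped with each other by genotype. The level was 1.24-fold of WT in PS19 (log2 fold change 0.31 ± 0.09 SE, edgeR FDR = 0.0434) and 0.81-fold of PS19 in CgA-KO/PS19 (-0.30 ± 0.08, FDR = 0.0304). Leaving out 1 library at a time, the first call was kept without WT 2 or CgA-KO/PS19 1, 2, 3, 4 or 6 (FDR 0.0516 to 0.115 without each of the other 11 libraries). The second was lost without PS19 2, 4, 5 or 6 or CgA-KO/PS19 1, 2 or 3 (FDR 0.0553 to 0.0769). With the GC slope as a covariate the differences of Psmc5 were 0.24 (FDR = 0.0683) and -0.21 (FDR = 0.0869). Without WT 4 and CgA-KO/PS19 2 and 6 both calls were kept (FDR = 0.0486 and 0.0409). Without CgA-KO/PS19 1 to 3 the first was kept and the second was -0.24 (FDR = 0.215).

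Psmd3 (chr11:98682554-98695979), a scaffold of the lid, fell in CgA-KO/PS19 against PS19. It was at 113, 109, 115, 53.2 and 112 CPM in WT, 95.9 to 118 in PS19 (median 111) and 63.5 to 95.7 in CgA-KO/PS19 (median 72.8). Each CgA-KO/PS19 library was under each PS19 library, the nearest pair being 95.7 and 95.9, and WT 4 lay under all of them. The log2 fold change was -0.51 ± 0.15 SE (edgeR FDR = 0.0447), and -0.23 with the GC slope as a covariate (FDR = 0.197). Psmd3 was not called without CgA-KO/PS19 1 to 3. The Psmd3 transcript has the highest GC of the members at 58.3%. The call was kept without WT 1, 3 or 4 or CgA-KO/PS19 4 or 5, and lost without each of the other 12 libraries (edgeR FDR 0.0506 to 0.106). Against WT it was -0.41 ± 0.16 (FDR = 0.144).

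As a whole the 19S cap leaned lower than the 20S core in CgA-KO/PS19. Against PS19, 14 of the 17 cap genes had a log2 fold change under 0 (median -0.12) and 2 passed, and 10 of the 15 core genes had one over 0 (median 0.07) and 1 passed. Of all genes, 52.7% had one over 0 (median 0.03) and 9.72% passed. The lean was carried by the libraries CgA-KO/PS19 1 to 3. The mean level of the cap genes was 45.3, 48.5 and 45.7 CPM per kb in these, and 52.2 to 58.3 in the other 14 libraries. The mean of the core genes, without Psma8, was 45.3 to 52.9 over all 17. The log2 ratio of core to cap was accordingly 0.15, 0.00 and 0.21 in CgA-KO/PS19 1 to 3, -0.08, -0.20 and -0.27 in replicates 4 to 6, -0.25 to -0.17 over the WT libraries and -0.25 to -0.15 over those of PS19.

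Psmd1, a scaffold of the base, was at 124, 144 and 124 CPM in CgA-KO/PS19 1 to 3 and at 176 to 203 in the other 14 libraries (-0.24 ± 0.10 against PS19, edgeR FDR = 0.138). It was picked after its values were seen. Replicates 1 to 3 of CgA-KO/PS19 are also the 3 libraries with the highest mitochondrial share, replicates 1 and 3 have the highest striatal marker score of their genotype, and in each genotype replicates 1 to 3 express the Y-linked Ddx3y. With the striatal marker score as a covariate, 8 of the 17 cap genes and 8 of the 15 core genes were under 0 against PS19 (medians 0.04 and -0.01). With the level of Ddx3y as a covariate, 14 of the 17 cap genes were under 0 (median -0.13). Without these 3 libraries, 8 of the 17 cap genes and 8 of the 15 core genes were under 0 against PS19 (medians 0.06 and -0.0049), and 0 members passed, against 1.46% of all genes. Without WT 4 and CgA-KO/PS19 2 and 6, 14 of 17 cap genes were still under 0.

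The striatal covariate also changed the counts against WT. In PS19 against WT, 12 members were then called lower and 2 higher, 8 of the 14 in the 19S cap, and the median of the cap was -0.36. Of all genes, 10.2% were called lower and 7.01% higher in that fit. The score of the PS19 libraries was under that of each WT library, so the covariate and the genotype are nearly confounded there, and the calls cannot be told apart from the difference in striatal transcripts. In CgA-KO/PS19 against WT, 11 members were lower and 5 higher with this covariate, against 12.1% and 10.1% of all genes.

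The chaperones passed in no comparison. Psmg2, a chaperone of the alpha ring, was 0.30 ± 0.12 higher on the log2 scale in PS19 against WT, with an edgeR FDR of 0.151. Psmg3 was at 2.97 to 6.996 CPM (WT), 5.47 to 7.44 (PS19) and 2.86 to 6.51 (CgA-KO/PS19) (-0.44 ± 0.19 against PS19, FDR = 0.142), with overlapping genotypes. Psmg4, the lowest of the group, was at 2.78 to 3.505 CPM (WT), 2.82 to 3.404 (PS19) and 1.79 to 4.80 (CgA-KO/PS19). Psmd5, which holds base intermediates apart, was at 50.5 to 57.1 CPM (WT), 47.7 to 55.8 (PS19) and 35.6 to 56.9 (CgA-KO/PS19).

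Among activators, Psme1 (chr14:55578123-55581529), the alpha subunit of PA28, was at 24.6, 23.3, 16.6, 43.7 and 23.7 CPM in WT. In PS19 it was at 15.4 to 19.03 (median 16.6), and in CgA-KO/PS19 it was at 14.6 to 20.6 in replicates 1 to 5 and 40.6 in replicate 6. The log2 fold change in PS19 against WT was -0.64 ± 0.24 SE (edgeR FDR = 0.135), and the 2 highest values are those of WT 4 and CgA-KO/PS19 6. Psme2, its partner, was at 6.16 to 12.9 CPM (WT), 10.3 to 12.5 (PS19) and 8.23 to 15.4 (CgA-KO/PS19), and passed in no comparison. Psme2b, a copy of Psme2 with which it may share reads, was at 0.174 to 1.25 CPM over all libraries.

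Psme4 was at 54.1, 42.7, 55.5, 52.1 and 39.2 CPM in WT, 53.4 to 71.2 in PS19 (median 54.6) and 41.2 to 52.7 in CgA-KO/PS19 (median 49.7). Each CgA-KO/PS19 library was under each PS19 library (-0.29 ± 0.11, edgeR FDR = 0.0956), and the difference did not pass. Psme3 was at 124 to 158 CPM (WT), 132 to 155 (PS19) and 115 to 154 (CgA-KO/PS19), and these ranges overlap almost wholly. The inhibitor Psmf1 was at 39.0, 31.7, 32.6, 25.4 and 26.2 CPM in WT, 31.6 to 39.4 in PS19 (median 35.6) and 22.5 to 35.7 in CgA-KO/PS19 (median 25.8). Its log2 fold change in CgA-KO/PS19 against PS19 was -0.38 ± 0.13 (edgeR FDR = 0.0656). DESeq2 called it (17.3% of all genes) and edgeR did not. Over all members, 6 genes had no overlap between the libraries of PS19 and WT (9.52% of all genes), 5 had none between CgA-KO/PS19 and PS19 (6.63%), and 0 had none between CgA-KO/PS19 and WT (3.6%).

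Genes that work with the proteasome were looked at in 4 lists. Beside their counts, the shares of all genes passing were 5.9% in PS19 against WT, 9.72% in CgA-KO/PS19 against PS19 and 6.46% in CgA-KO/PS19 against WT. Of 19 partners (shuttle receptors, deubiquitinases and ligases at the cap, and assembly factors), 1 passed in PS19 against WT: Ubqln4, a shuttle for ubiquitinated proteins, with a mean ± SD of 109.7 ± 23 (WT, n = 5), 155 ± 12.3 (PS19, n = 6) and 151 ± 23.9 CPM (CgA-KO/PS19, n = 6). It rose by 0.50 ± 0.14 on the log2 scale (edgeR FDR = 0.0407). Of 10 transcription factors of proteasome genes and their regulators, Nfya, a subunit of the factor that binds CCAAT boxes, fell by 0.61 ± 0.12 in PS19 against WT (FDR = 0.00668), from 25.04 ± 3.999 to 16.4 ± 2.06 CPM. Nfe2l1, which drives the response to proteasome inhibition, spread from 63.6 to 466 CPM within genotypes and did not pass. Of 13 genes of peptide loading onto class I molecules, which use the products of the immunoproteasome, Calr fell in PS19 (-0.54 ± 0.14, FDR = 0.0354) and in CgA-KO/PS19 (-0.65 ± 0.14, FDR = 0.0139), each against WT, and 12 did not pass. Of 13 genes of ubiquitin supply and conjugation, Ube2d3 (0.42 ± 0.12, FDR = 0.0384) and Rps27a (0.90 ± 0.22, FDR = 0.0192), which encodes ubiquitin fused to a ribosomal protein, rose in CgA-KO/PS19 against WT. No gene of the 4 lists passed in CgA-KO/PS19 against PS19 by edgeR.

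Markers were counted for cells that could carry the immunoproteasome. Of 10 microglial and 8 endothelial markers 0 passed in any comparison, and their summed levels overlapped between genotypes, at 269 to 296, 259 to 322 and 178 to 328 CPM for microglia and 158 to 199, 161 to 223 and 179 to 248 for endothelium in WT, PS19 and CgA-KO/PS19. Single microglial markers had wide estimates, such as -0.93 ± 0.63 on the log2 scale for Cx3cr1 in PS19 against WT (edgeR FDR = 0.431) and -0.63 ± 0.25 for Tmem119 in CgA-KO/PS19 against PS19 (FDR = 0.111), both picked after their values were seen. Of 8 leukocyte markers 2 had enough counts to be tested and 0 passed, with sums of 2.97 to 5.98, 2.51 to 4.55 and 3.36 to 6.41 CPM. The 8 markers of cortical neurons were abundant in every library, summing to 6195 to 12083 CPM (WT), 8959 to 9877 (PS19) and 5588 to 14552 (CgA-KO/PS19), and 0 were called. Of the 10 striatal markers, 10 were lower in PS19 against WT, 8 were higher in CgA-KO/PS19 against PS19 and 1 was lower in CgA-KO/PS19 against WT. Their part in the differences of Psmb10 and Psmc5 was not tested beyond the covariate, under which the difference of Psmb10 was 0.79 in PS19 against WT (edgeR FDR = 0.0695) and -0.57 in CgA-KO/PS19 against PS19 (FDR = 0.0834). Under it the difference of Psmc5 was 0.25 (FDR = 0.216) and -0.28 (FDR = 0.0748), so that neither gene was called.

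Some values may hold reads of neighbours, since nothing states that counting used the strand. By GENCODE M21, exons of Psmb9 overlap those of Tap1 on the other strand over 212 bases (5.79% of its exon bases), Psmb8 shares 14.7% with the antisense gene Gm20496, Psmd9 shares 25.5% with Gm26745 and Psmb7 shares 11.8% with Nek6. Psmb5 holds the microRNA gene Mir686 over 12.1% of its exon bases. Psmb10, Psmc5 and Psma3 overlap no other annotated exon.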

How the data were processed

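RNA of prefrontal cortex was measured in 17 libraries, grouped by genotype as labelled. Per the labels and Methods, the authors trimmed reads with Trimmomatic 0.39, aligned them to mm10 with STAR 2.7.10b, quantified with StringTie 1.3.6 and deposited the counts per gene made by prepDE, not normalized. The annotation release and strand setting are not given in the sources used here. These counts are derived from coverage, and the most frequent count above 0 was 3 in 13 libraries, so they exceed fragments.

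Counts were tested with edgeR 4.0.16 (R 4.3.3): TMM, filterByExpr by genotype, a quasi-likelihood fit over all 17 libraries with no covariate, and Benjamini-Hochberg adjustment over 23062 genes. Levels per kb used GENCODE M21 principal transcripts. Ratios had a prior count of 0.5. Alternatives included DESeq2 1.42.0 and limma 3.58.1 voom. The scripts were tested on simulated data. Named are all catalytic subunits, Psme genes, Psmf1, members past the FDR, and the highest and lowest of each subgroup per length, with others named as chosen later. The members and lists were chosen with earlier results of these data known. Paaf1, a listed partner, was not analysed here.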

Additional observations from a re-analysis of the deposited data

Results flagged for a closer look

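A sample far from the others of its genotype was found in 6 of 75 groups of values checked (Dixon's criterion), where chance gives about 1 in 20 groups, or 3.8. WT 4 was low in Psmb5 (14.8 CPM, the nearest WT library at 28.8) and in Psmd3 (53.2, nearest 109), and high in Psmc6 (114.5, nearest 81.4). In WT 4 the log2 ratio of Psmb8 to Psmb5 was -8.88, with 0 counts of Psmb8, against -5.48 in the nearest WT library. CgA-KO/PS19 6 was high in Psme1 (40.6 CPM, nearest 20.6). PS19 3 was high in Psme3 (154.9, nearest 138). WT 4 and CgA-KO/PS19 6 have the lowest GC slopes of the 17 libraries. WT 4 is also the shallowest. The part of base composition or depth in these values was not tested.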

How the results depend on the processing

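The number of called members depended on the processing. Without a filter on low counts 1 member was called in PS19 against WT (2.64% of all genes) and 1 in CgA-KO/PS19 against PS19 (3.92%). With only the 2 genotypes compared, 5 were called in PS19 against WT (10.5% of all genes). With limma voom the counts were 5, 11 and 4 (in the order PS19 against WT, CgA-KO/PS19 against PS19, CgA-KO/PS19 against WT), with the striatal score 14, 2 and 16, and with the GC slope 1, 1 and 7. Of all genes these called 17.2%, 22.7% and 10.7% (voom), 17.2%, 5.55% and 22.2% (striatal score) and 6.93%, 8.54% and 12.4% (GC slope). With the most similar libraries averaged, 0 were called in each (1.92%, 0.697% and 2.58%). Between CgA-KO/PS19 and WT, 4 were called by DESeq2 (11.5% of all genes), 1 with DESeq2's size factors (6.62%), 1 with at least 10 counts in every library (45 members tested, 9.36%), 2 with the level of Ddx3y (7.66%) and 2 without WT 4 and CgA-KO/PS19 2 and 6 (6.16%). Without CgA-KO/PS19 1 to 3, 0 were called against PS19 (1.46%). Leaving out 1 library gave 0 to 3 (2.79% to 7.21% of all genes), 0 to 7 (4.46% to 17.3%) and 0 to 2 (2.76% to 8.89%). The causes were not tested.

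Replicate numbers did not pair the samples: deviations of same-numbered libraries correlated at -0.23 to 0.44, and with the replicate block 0 members were called in each comparison (2.86%, 2.84% and 2.66% of all genes).

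Leaving out 1 library moved the difference in the log2 ratio Psmb10/Psmb7 between 0.57 and 0.80 in PS19 against WT, between -0.47 and -0.29 in CgA-KO/PS19 against PS19, and between 0.17 and 0.43 in CgA-KO/PS19 against WT, where it passed without CgA-KO/PS19 6 (exact permutation, adjusted p = 0.0476). The first 2 were 0.57 and -0.29 without WT 4 and CgA-KO/PS19 2 and 6, and the second -0.48 without CgA-KO/PS19 1 to 3. None of these passed the adjusted threshold, which is harder to reach in this test with fewer libraries. Differences that passed in no setting also turned: Psmb8/Psmb5 was -0.0419 in PS19 against WT and -0.60 in CgA-KO/PS19 against WT without the 3 libraries of low GC slope, and -0.21 in the latter with a prior count of 5. Leaving out 1 library, these 2 ranged from -0.0419 to 1.01 and from -0.31 to 0.74, and Psmb9/Psmb6 in CgA-KO/PS19 against PS19 from -0.0739 to 0.20. The log2 fold change of Psmb8 in CgA-KO/PS19 against PS19 was -0.00465 without a filter, -0.24 with the striatal score, -0.31 without CgA-KO/PS19 1 to 3 and -0.0638 to 0.17 leaving out 1 library. That of Psmb9 was -0.00606 without a filter, -0.15 with voom, -0.0713 with the striatal score and -0.0655 to 0.15 leaving out 1 library. Of the 180 alternative values for results that passed, 92 kept the call and 88 lost it, and 0 turned. Depth limits Psmb8, Psmb9, Psmb11 and Psma8, each under 3 CPM.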
